A study of Macaca mulatta with 9 samples.

Results

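MRAP encodes the melanocortin receptor accessory protein. Here its transcript was followed in the ovaries of 9 female rhesus macaques, Macaca mulatta, on Affymetrix rhesus arrays with 1 monkey per array. MRAP was chosen because the deposited values showed a large rise in old ovaries, and both probe sets that carry its symbol in the array annotation were taken. A probe set is a group of short probes on the array that together read 1 stretch of transcript. These were 2 of the 52766 probe sets analysed, and MRAP was 1 of the 14132 genes that had a probe set with a single symbol. STAR, a gene of steroid-making cells, and FABP4, a gene of fat cells, were set beside it.

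The animals formed 3 groups of 3. The young ones, aged 3 to 4 years, had regular cycles and no offspring, those in middle age, at 7 to 8 years, were fertile, and the old ones, at 18 to 19 years, could no longer reproduce. All were anaesthetised with sodium pentobarbital and perfused with a cold buffer before the ovary was frozen, and the labels name no other treatment. Each array measured RNA from a piece of 1 ovary, a tissue that mixes many cell types. Cycle stage was set near proestrus from past records for the 2 younger groups and is not given for the old group in the sources used here. Because whole tissue was measured, a change in the number of cells of a type and a change in RNA per cell cannot be told apart in any value that follows.

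MRAP is a small membrane protein best known from the adrenal cortex. It carries the melanocortin-2 receptor (MC2R), which binds the pituitary hormone ACTH, to the cell surface and makes it responsive to that hormone. The bound receptor raises cyclic AMP, protein kinase A becomes active, and STAR protein moves cholesterol into mitochondria, where steroid synthesis begins. MRAP transcript is also abundant in fat tissue. Its relative MRAP2 is best known from the brain, where it modulates the melanocortin-4 receptor in the control of feeding.

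The brighter of the MRAP probe sets, MmugDNA.24255.1.S1_at, had intensities of 14.6, 14.96 and 10.3 in the young ovaries, 30.6, 36.4 and 9.74 in the middle-aged ovaries, and 1144, 296 and 79.1 in the old ovaries. Intensity is the RMA value on a linear scale, normalised by the authors across arrays and without a unit of concentration. Every old ovary was above all 6 others, and the lowest old value was 2.17 times the highest of those 6. The old monkeys were far from alike, since old 1 was 14.5 times as high as old 3. On the log2 scale the group means were 3.71 ± 0.30 in young, 4.47 ± 1.03 in middle-aged and 8.22 ± 1.93 in old ovaries (SD, n = 3 each), so the spread was widest where the level was highest.

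**Figure D1:**
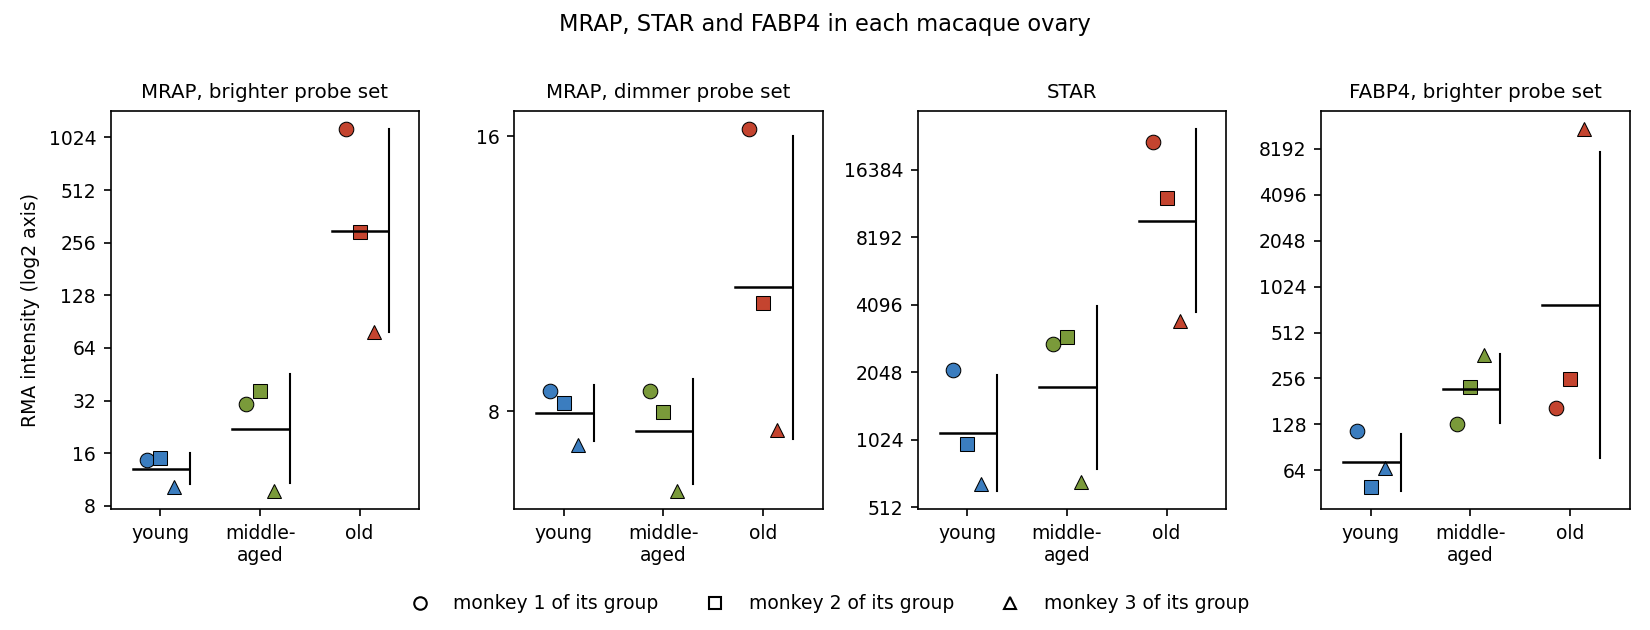
Intensity of MRAP (both probe sets), STAR and FABP4 in each ovary on a log2 axis, with 1 point per monkey, the horizontal line at the mean of the log2 values and the vertical line at 1 SD to either side of it (n = 3 each). On the brighter MRAP probe set the old ovaries lay at 79.1, 296 and 1144, all above the other 6, whereas on the dimmer one old 3 lay among them at 7.63.

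The mean log2 difference of the brighter probe set was 4.51 between old and young ovaries, a 22.9-fold difference, and 3.76 between old and middle-aged ovaries, a 13.5-fold difference. The gene was chosen on these contrasts, so the differences are descriptions and no test of them is given. Across the array, every old value was above every young value for 7.38% of probe sets, above every middle-aged value for 5.33%, and above all 6 other ovaries for 2.45%.

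A probe set was called changed where limma's moderated test gave a Benjamini-Hochberg adjusted p under 0.05 over all probe sets and the fold was at least 1.5. Between old and young ovaries 82 probe sets were called (14 higher and 68 lower in old), which is 0.155% of those tested, and neither MRAP probe set was among them. Between old and middle-aged ovaries 18 were called, all lower in old (0.0341%), again without MRAP. Nothing is read from that for MRAP, whose choice used these contrasts.

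The dimmer probe set, MmugDNA.29768.1.S1_at, had intensities of 8.42, 8.17 and 7.35 in young, 8.42, 7.98 and 6.54 in middle-aged, and 16.3, 10.5 and 7.63 in old ovaries. Old 1 and old 2 were the highest of the 9, but old 3 fell below 4 of the 6 younger ovaries, so the groups overlapped. Its log2 difference was 0.46 between old and young and 0.52 between old and middle-aged ovaries, far smaller than on the brighter probe set. Both probe sets put the old monkeys in the same order, and across the 9 arrays their log2 values had a Pearson r of 0.895. With no detection calls among the values used here, whether the dimmer probe set was above background cannot be said.

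The place of MRAP within each array moved with age too. On the brighter probe set the signal exceeded that of 28.8% to 38.3% of all probe sets in the young ovaries and of 27.1% to 57.5% in the middle-aged ovaries. In the old ovaries it exceeded 96.6% in old 1, 86.8% in old 2 and 69.9% in old 3. The dimmer probe set exceeded 41.0% at most, in old 1. This place describes brightness on the array, which depends on the probes as well as on the RNA.

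Middle-aged and young ovaries were compared with a test, because the gene was chosen for its rise in old ovaries and not on this contrast. The values of both younger groups did enter that choice, so the test is not fully separate from it. On the brighter probe set the middle-aged monkeys 1 and 2 were above all 3 young ones and middle-aged 3 was below them all. The log2 difference between middle-aged and young ovaries was 0.76 (SE 0.88), with a limma adjusted p of 1 and a two-sided exact permutation p of 0.4, where 0.1 is the smallest that 3 against 3 allows. On the dimmer probe set it was -0.07 (SE 0.25, adjusted p = 1, exact permutation p = 0.7). The order from low to high was thus young, middle-aged and old on the brighter probe set, of which young and middle-aged did not differ beyond their spread. Between middle-aged and young ovaries 1 probe set of all those tested was called (0.0019%).

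MRAP2, the other accessory protein, ran the opposite way. Its intensity was 669.7, 392 and 179.6 in young, 668, 239.5 and 312 in middle-aged, and 55.4, 88.2 and 227 in old ovaries. Old 1 and old 2 were below every other ovary, while old 3 was above young 3 and the groups overlapped. The log2 difference was -1.80 (SE 0.65) between old and young ovaries, with an adjusted p of 0.287 and an exact permutation p of 0.2, and -1.83 (SE 0.65, adjusted p = 0.566) between old and middle-aged ovaries. Neither difference passed the test. Among the old monkeys MRAP2 was lowest where MRAP was highest, and over the 9 arrays its log2 values had an r of -0.791 with MRAP.

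The receptors that MRAP could serve had narrow ranges of signal. MC2R, the ACTH receptor, lay between 9.70 and 13.5 on the probe set that represents it and between 7.31 and 9.68 on its other one, over all 9 ovaries. Its old values of 13.5, 12.3 and 13.1 overlapped the young values of 13.2, 12.4 and 9.70, with a log2 difference of 0.15 (SE 0.14, adjusted p = 0.671). MC3R, a receptor of the brain and gut, lay between 7.47 and 9.85, and MC5R, known from skin glands, between 29.4 and 42.0. Their log2 differences between old and young ovaries were -0.02 (SE 0.13, adjusted p = 0.966) and 0.05 (SE 0.14, adjusted p = 0.906), smaller than their standard errors. The probe sets of MC2R and MC3R exceeded only 17.6% to 36.3% of all probe sets on any array, and whether they were above background is not known. MC1R and MC4R were not analysed here.

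POMC, from which ACTH and the melanocortins are cut, measured 35.6, 34.5 and 32.3 in young, 29.2, 30.8 and 30.8 in middle-aged, and 27.6, 39.6 and 32.3 in old ovaries, and the age groups overlapped. PCSK2, a protease that cuts it further, lay between 10.7 and 21.0 on its brighter probe set. The antagonists of the receptors did not pass the test either. AGRP had 42.0 in old 1 and between 23.9 and 30.5 in the other 8 ovaries, with an old minus young log2 difference of 0.17 (SE 0.18, adjusted p = 0.725). ASIP had 46.8, 68.3 and 52.9 in old ovaries against 47.7, 25.99 and 41.0 in young ovaries, a log2 difference of 0.58 (SE 0.23, adjusted p = 0.337).

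Old 1 stood out on 1 more probe set of the family. SDC3, a cell surface proteoglycan that binds AGRP, had a dimmer probe set at 187 in old 1 and between 15.3 and 26.1 in the other 8 ovaries. Its brighter probe set had 354, 321 and 254 in old ovaries against 325, 216 and 146 in young ovaries, a log2 difference of 0.50 (SE 0.30, adjusted p = 0.515). MGRN1, a ubiquitin ligase linked to melanocortin signalling, had 2012, 2246 and 1519.5 in old and 1532, 1444 and 1914 in young ovaries (log2 difference 0.23, SE 0.19, adjusted p = 0.633). Of the 17 listed genes of the melanocortin system 11 were measured, and 0 were called between old and young ovaries. Only 0.155% of all probe sets were called there, so 0 called in a short list, here and below, is no result about its genes. Besides MRAP, which was chosen on that contrast, MRAP2 and ASIP had an unadjusted p under 0.05, a limit that 13.5% of all probe sets met. The median log2 difference over the 11 genes was 0.15, against 0.01 over all probe sets.

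**Figure D2:**
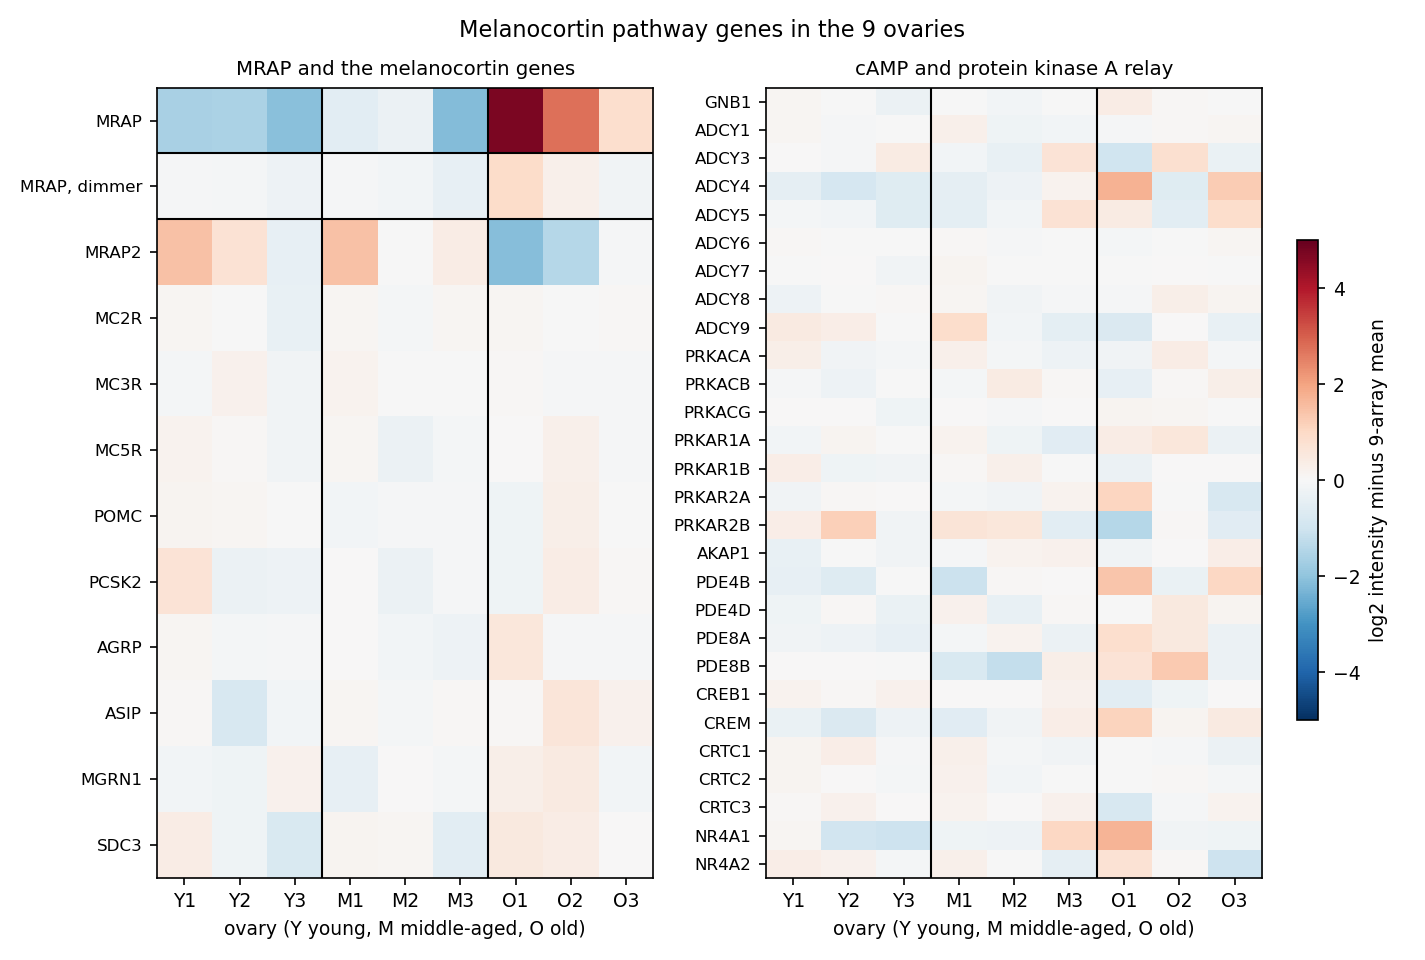
Heat map of the log2 intensity of each melanocortin gene (left) and each cyclic AMP and protein kinase A gene (right) minus its mean over the 9 arrays, with 1 column per ovary and colour scales that end at 5 to either side of 0. MRAP was the gene with the widest span on the left, MRAP2 ran the other way, and the receptors and POMC stayed near 0 in all 9 ovaries.

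Downstream of the receptor, 28 of 31 listed genes of the cyclic AMP and protein kinase A relay were measured and 0 were called between old and young ovaries. In that comparison 18 had an estimate above 0 and 10 below it, the median was 0.10, and 4 had an unadjusted p under 0.05, as 13.5% of all probe sets did. CREM, a cyclic AMP-responsive transcription factor, measured 621, 479 and 653 in young, 534, 687 and 995 in middle-aged, and 1673, 855 and 1056 in old ovaries. All old values were above all young ones, yet old 2 was below middle-aged 3. The log2 difference between old and young was 0.99 (SE 0.30, adjusted p = 0.221).

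ADCY4, an enzyme that makes cyclic AMP, measured 220.3, 44.5 and 162 in old ovaries against 48.9, 37.8 and 44.2 in young ovaries, so that old 2 lay within the young range (log2 difference 1.43, SE 0.52, adjusted p = 0.291). PDE8A, a phosphodiesterase that removes cyclic AMP, measured 624, 485 and 285 in old ovaries against 307, 287 and 262 in young ovaries, a log2 difference of 0.63 (SE 0.27, adjusted p = 0.354). Its old monkeys stood in the same order as for MRAP, with an r of 0.911 over the 9 arrays. CREB1, the transcription factor that protein kinase A phosphorylates, measured 233, 290.1 and 345 in old ovaries against 377, 353 and 395 in young ovaries, a log2 difference of -0.39 (SE 0.15, adjusted p = 0.318). On this probe set, its brightest, CREB1 was lowest in old 1, where MRAP was highest, and its r with MRAP was -0.966. Ranked from the highest r down by its closest probe set, CREB1 took place 4973 of 14131 genes. Its probe sets, of which only this one is shown, thus differed in their relation to MRAP. None of these 4 genes passed the test.

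STAR, which delivers cholesterol to the first enzyme of steroid synthesis, had intensities of 2089.7, 975 and 646 in young, 2740.4, 2942 and 663 in middle-aged, and 21679, 12233 and 3448 in old ovaries. Every old ovary was above the other 6, old 3 by the narrowest margin. The log2 difference was 3.15 (SE 0.81) between old and young ovaries, an 8.86-fold difference, with an adjusted p of 0.169 and an exact permutation p of 0.1. Between old and middle-aged ovaries it was 2.47 (SE 0.81), with an adjusted p of 0.530 and an exact permutation p of 0.1. The exact value is in both cases the smallest that 3 against 3 can give, and neither difference was called.

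STAR and MRAP put the ovaries in nearly the same order. Over the 9 arrays their log2 values had a Pearson r of 0.964 and a Spearman rho of 0.967. Since both genes were high in all 3 old ovaries, the relation was also taken apart. Among the 6 young and middle-aged ovaries alone r was 0.904, with the age group means subtracted it was 0.898 over 9 arrays, and with old 1 and old 2, the arrays farthest from the median of STAR, left out it was 0.881. Leaving out 1 array at a time gave 0.946 to 0.980. The dimmer MRAP probe set gave an r of 0.874 with STAR. These are descriptions over few arrays that share 1 normalisation, and no test was made of them. In every age group the monkey numbered 3 had the lowest STAR and the lowest MRAP on the brighter probe set.

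**Figure D3:**
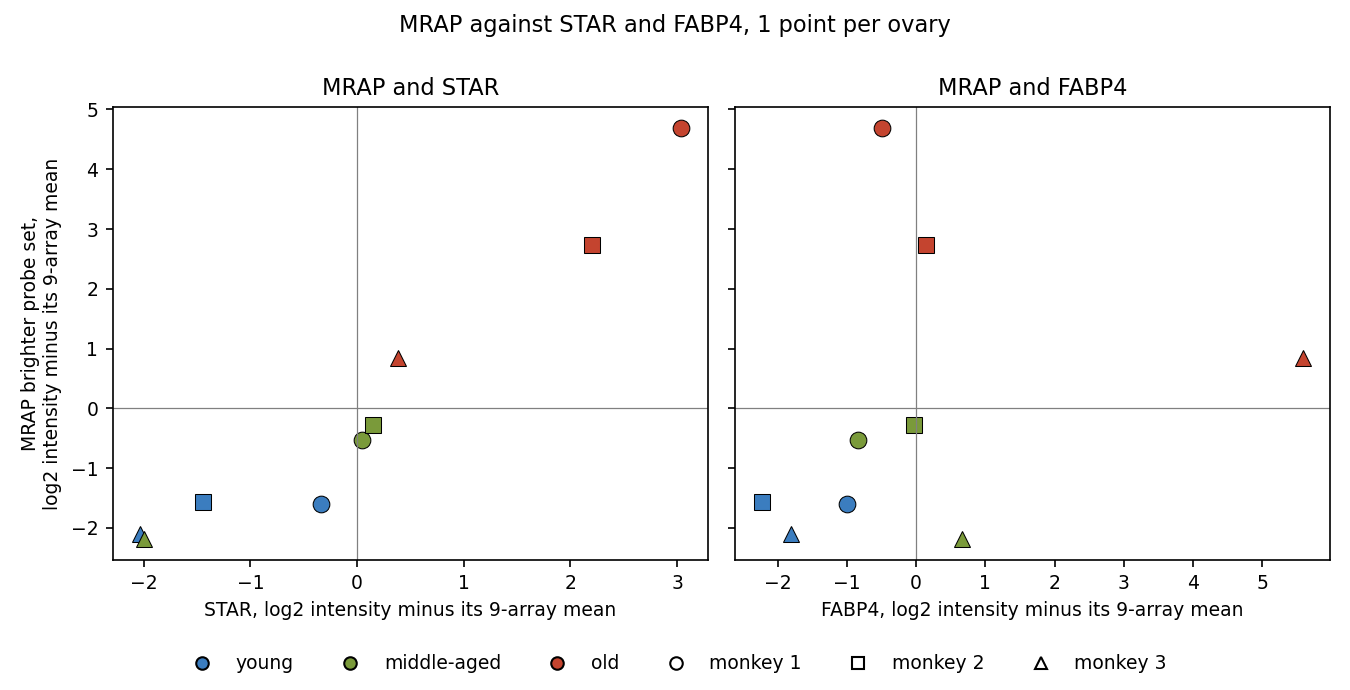
MRAP on the brighter probe set against STAR (left) and FABP4 (right), each as log2 intensity minus its mean over the 9 arrays, with 1 point per ovary coloured by age group and shaped by monkey number. With STAR the points rose together (r = 0.964), also among the 6 young and middle-aged ovaries, whereas the ovary highest in FABP4, old 3, was the lowest of the old ovaries in MRAP (r = 0.247 over all 9).

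Other genes of steroid-making cells moved with STAR in part. Of 32 listed genes 20 were measured, 0 were called, 16 had an estimate above 0 between old and young ovaries and 11 had an unadjusted p under 0.05, against 13.5% of all probe sets. Their median log2 difference was 0.84 against 0.01 over all probe sets. In 6 of the 20, STAR among them, every old ovary was above all others, which 2.45% of all probe sets showed. The list was chosen with earlier results of these data known, so these counts are descriptions. TSPO, a cholesterol-binding protein of the outer mitochondrial membrane, measured 1569, 1233 and 1351 in old ovaries against 797, 809.6 and 968 in young ovaries, without overlap (log2 difference 0.69, SE 0.14, adjusted p = 0.113). MGARP, a mitochondrial protein of steroid-making tissue, measured 5836, 8278 and 2425 in old ovaries against 1220.3, 533 and 442 in young ovaries (2.89, SE 0.61, adjusted p = 0.119). CYB5A, cytochrome b5, measured 3940.1, 5556 and 3083 in old ovaries against 2771, 2435 and 1949 in young ovaries (0.79, SE 0.22, adjusted p = 0.203). All 3 genes were higher in each old ovary than in any younger one, and none passed the test. The 4 of the 20 genes with an estimate below 0 were HSD17B1, NR5A2, GATA4 and GATA6, named after their values were seen. GATA6 measured 821, 603 and 869 in old ovaries against 1019, 1104 and 1119 in young ovaries, without overlap (-0.52, SE 0.15, adjusted p = 0.209). The log2 difference was -1.18 (SE 0.50, adjusted p = 0.352) for GATA4 and -2.44 (SE 1.57, adjusted p = 0.538) for NR5A2.

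The genes of this list nearest to MRAP were STAR, INHA, MGARP and FDX1, with r of 0.964, 0.961, 0.929 and 0.910. That makes 4 of 20 at 0.9 or more, where 0.849% of the other 14131 genes reached it. The median r of the list was 0.743. This r is taken over old and younger arrays together, and MRAP was chosen for its rise in old ovaries. A high r is thus favoured for any gene that rises there. The list holds STAR and was chosen with earlier results of these data known, so counts of its genes given here are descriptions without a test. INHA and FDX1 are named because of their r. INHA, the alpha subunit of inhibin, measured 317, 510.2 and 189 in young, 459, 533 and 136 in middle-aged, and 6349.6, 2375 and 522 in old ovaries. Here old 3 fell within the range of the younger ovaries. FDX1, the ferredoxin that passes electrons to mitochondrial steroid enzymes, measured 2804, 901 and 1015 in young, 1764, 1630.0 and 727 in middle-aged, and 12400.3, 6392 and 1727 in old ovaries, and again old 3 was within the younger range. The log2 difference between old and young was 2.67 (SE 0.89, adjusted p = 0.259) for INHA and 1.91 (SE 0.74, adjusted p = 0.321) for FDX1. In 13 of the 20 genes old 3 was the lowest old ovary, as it was in 37.8% of all genes.

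The enzymes that set which steroid is made differed from one another in their likeness to MRAP. CYP17A1, needed for androgens, measured 337, 3053 and 2105 in old 1, old 2 and old 3, against 1250.1, 621 and 184 in young ovaries. CYP19A1, the aromatase that makes estrogens, was 1389 in old 1 and 60.9 and 48.8 in the other old ovaries, against 97.8, 128 and 42.2 in young ovaries. HSD3B2, needed for progesterone, was 2087, 123.3 and 360.4 in old against 521, 914 and 152 in young ovaries. HSD17B1, a granulosa cell enzyme of estradiol synthesis, was 127, 144 and 133 in old against 1372, 3972 and 322 in young ovaries. Thus, on the brightest probe set of each gene, old 1 held the most MRAP, aromatase and HSD3B2 but the least CYP17A1 and HSD17B1 of the old ovaries. Over the 9 arrays r with MRAP was 0.668 for CYP19A1, 0.376 for HSD3B2, 0.309 for CYP17A1 and -0.497 for HSD17B1. Ranked from the highest r down by its closest probe set, CYP17A1 took place 1246 of 14131 genes. HSD3B2 took place 4844, so another probe set of CYP17A1, not shown here, was closer to MRAP. With the age group means subtracted it was 0.871, 0.685, -0.0942 and 0.346 in the same order. The adjusted p of the 4 genes between old and young ovaries, which were named after their values were seen, was between 0.279 and 0.976. CYP11A1 and LHCGR were not analysed here.

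Genes of the adrenal cortex gave 13 of 14 measured and 0 called, with a median log2 difference of 0.42. Its list shares HSD3B2 and MC2R with lists already given. CYP11B2, the aldosterone enzyme, lay between 39.7 and 51.4 and SULT2A1 between 10.5 and 13.9 over all 9 ovaries. CYP11B1, the last enzyme of cortisol synthesis, measured 55.3, 27.1 and 322 in old ovaries against 16.8, 17.4 and 19.6 in young ovaries (log2 difference 2.13, SE 0.94, adjusted p = 0.374). CYP21A2, the 21-hydroxylase, measured 35.9, 36.1 and 74.9 in old ovaries against 37.0, 29.8 and 36.7 in young ovaries. Both were highest in old 3, the old ovary with the least MRAP. Of the other listed genes GSTA1, a glutathione transferase, was 204, 2617 and 379 in old ovaries, highest in old 2, against 205, 43.0 and 76.3 in young ovaries (2.74, SE 0.94, adjusted p = 0.268). MELTF, a cell surface iron-binding protein, and AS3MT, a methyltransferase, had log2 differences of -1.16 and 0.58 (adjusted p = 0.246 and 0.269).

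FABP4, the fatty acid carrier of fat cells, had intensities of 115, 49.3 and 65.9 in young, 129, 226 and 364 in middle-aged, and 165, 255 and 11079 in old ovaries. Old 3 was 67.3 times as high as old 1, while old 1 and old 2 lay within the middle-aged range. The second FABP4 probe set showed the same outlying ovary, with 13.1, 14.6 and 1125 in old ovaries against 9.18, 4.79 and 7.30 in young ovaries, and the r between the FABP4 probe sets was 0.989. On the brighter one the log2 difference was 3.42 (SE 1.39) between old and young ovaries, with an adjusted p of 0.339 and an exact permutation p of 0.1, and 1.82 (SE 1.39, adjusted p = 0.794, exact permutation p = 0.6) between old and middle-aged ovaries. Without old 3 the first fell to 1.51 and the second turned to -0.10, so the size of both rested on that ovary.

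FABP4 and MRAP did not share an order over all 9 arrays. Their r was 0.247 and their rho 0.333. Leaving out 1 array at a time gave an r of 0.165 to 0.460, and rho rose to 0.762 without middle-aged 3. Without the 3 arrays numbered 3, r was 0.566 and rho 0.771, so the weak relation rested in part on those arrays. In the 6 young and middle-aged ovaries r was 0.159, and with the age group means subtracted it was -0.834, because the old ovary highest in FABP4 was lowest in MRAP. Among 14131 other genes ranked by likeness to MRAP, STAR took place 12 and FABP4 place 6264. With age group means subtracted the places were 528 and 13698, and with the dimmer MRAP probe set 589 and 9990.

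Many other fat cell genes peaked in the same ovary as FABP4. Of 28 listed 21 were measured and 0 were called between old and young ovaries. Highest of all ovaries in old 3 were 16 of the 21, and the share of all genes highest there was not counted. LEP, the fat cell hormone leptin, was 794 in old 3 and between 9.97 and 16.3 in the other 8 ovaries. CIDEA, a lipid droplet protein, was 214 in old 3 and between 8.34 and 11.3 elsewhere, and LPL, which frees fatty acids from lipoproteins, was 3108 in old 3 and between 54.4 and 276 elsewhere. These 3 genes were named after their values were seen. ADIPOQ, the fat cell hormone adiponectin, showed no such step on its brightest probe set. That probe set had 297, 435 and 422 in old ovaries against 456, 511 and 494 in young ovaries (log2 difference -0.36, SE 0.16, adjusted p = 0.366). Its r with MRAP was -0.875, yet by its closest probe set ADIPOQ took place 7946 of 14131 genes. Another probe set of ADIPOQ thus differed, and its values are not shown here. The summed intensity of the 21 genes was 3469 in old 1, 3926 in old 2 and 23811 in old 3, and between 3504 and 4769 in the 6 younger ovaries. The sum of old 1, which held the most MRAP, was thus the lowest of the 9, and that of old 2 lay within the young range. Bright genes weigh most in such sums: PNPLA2 made up 922 of the 3469 in old 1 and was 1313 to 1815 in young ovaries. FABP4 went the other way, at 165 in old 1 against 49.3 to 115 in young ovaries. The part of fat cells in the level of MRAP was not tested.

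In 2 of the 21 fat cell genes, ACSL1 and LGALS12, every old ovary was above the other 6, which 2.45% of all probe sets showed. ACSL1, which activates fatty acids, measured 339.6, 263 and 634 in old ovaries against 67.8, 73.1 and 120.3 in young ovaries, a log2 difference of 2.19 (SE 0.36, adjusted p = 0.0763). LGALS12, a fat cell galectin, measured 45.3, 37.5 and 102 in old ovaries against 29.1, 29.7 and 30.3 in young ovaries (0.91, SE 0.32, adjusted p = 0.280). PNPLA2, the first enzyme of fat breakdown, measured 922, 904 and 843 in old ovaries against 1543, 1815 and 1313 in young ovaries (-0.80, SE 0.23, adjusted p = 0.203). The median log2 difference of the 21 genes was 0.90 between old and young ovaries.

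**Figure D4:**
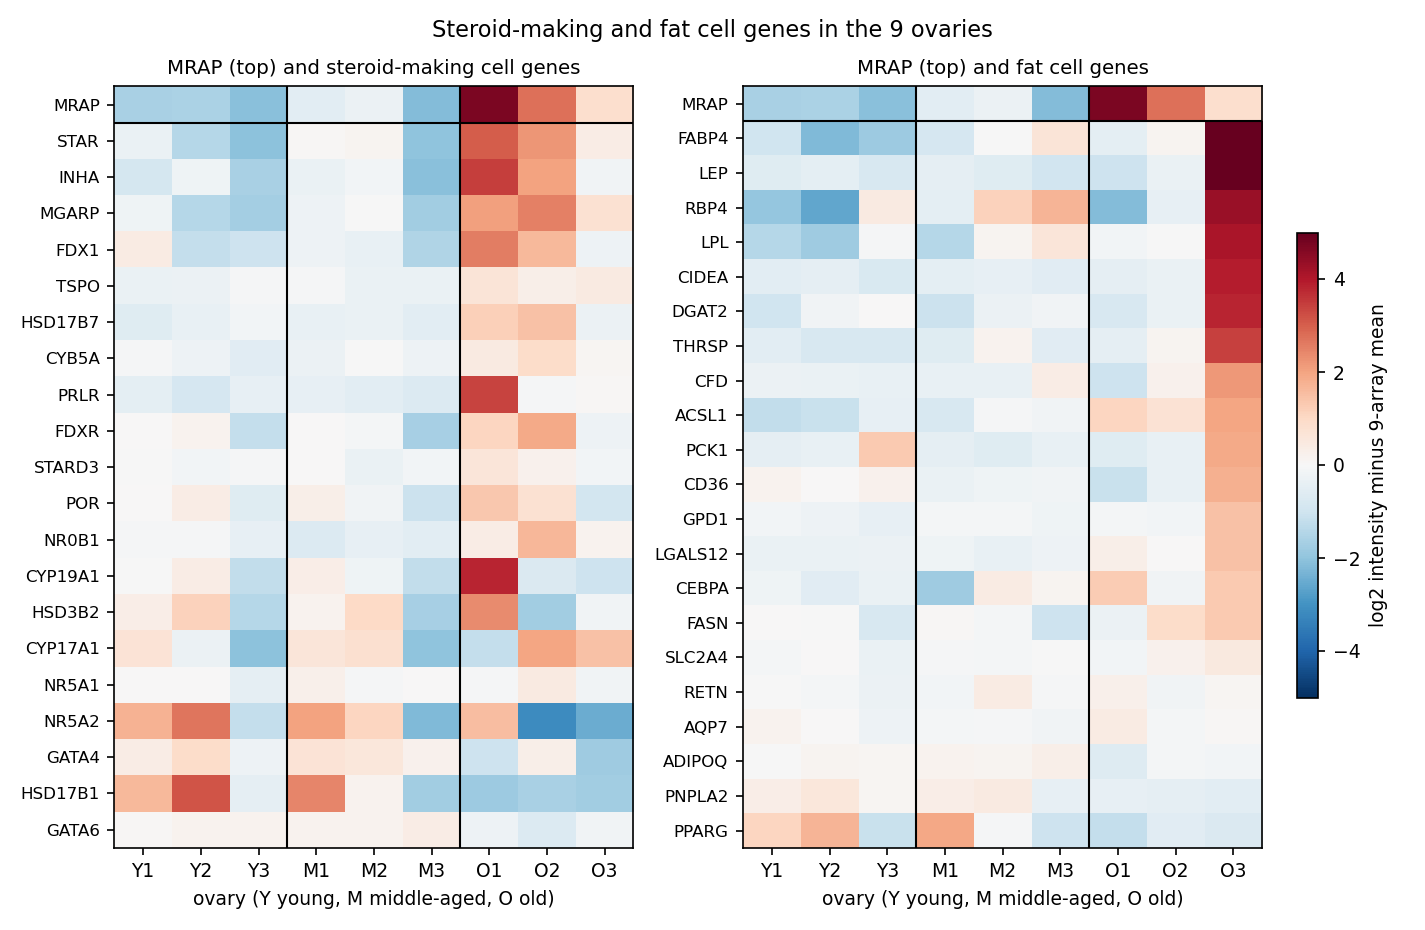
Heat map of log2 intensity minus the mean over the 9 arrays, with MRAP in the top row, 20 genes of steroid-making cells ordered by their r with MRAP (left) and 21 fat cell genes ordered by their height in old 3 (right), and colour scales that end at 5 to either side of 0. Genes at the top of the left panel were high in old 1 and old 2 as MRAP was, whereas 16 of the 21 fat cell genes were highest in old 3.

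Markers of other cells that ovary tissue can hold were followed in the same arrays, and their part in the level of MRAP was not tested. Oocyte genes were the only one of the listed groups with calls, where 0.155% of all probe sets were called between old and young ovaries. Of 18 listed 15 were measured, and 7 were called lower in old than in young ovaries (ZP3, FIGLA, NLRP5, ZAR1, OOEP, NLRP4 and NLRP11), of which NLRP5, NLRP4 and NLRP11 were also called lower than in middle-aged ovaries. Their summed intensity was 2787 to 8033 in young, 1851 to 5704 in middle-aged and 484 to 652 in old ovaries. Of 15 granulosa cell genes 12 were measured (0 called, median log2 difference -1.12 between old and young ovaries). The sums were 11474 to 32220 in young, 13228 to 27126 in middle-aged and 8546 to 18566 in old ovaries. SERPINE2, named after its values were seen, made up 15021 of the 18566 in old 2. AMH, the granulosa cell hormone of small follicles, was 56.4, 72.3 and 65.0 in old against 625, 3292 and 412 in young ovaries (-3.88, SE 0.97, adjusted p = 0.160).

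Genes of theca and hilus cells (7 of 12 measured, 0 called, median -0.39 between old and young ovaries) summed to 568 to 2180.3 in young, 650.3 to 2915 in middle-aged and 2545 to 3440.4 in old ovaries. Luteal genes (7 of 14 measured, 0 called, median 0.20) summed to 1113 to 3065 in young, 1275 to 4744 in middle-aged and 8868 to 40694 in old ovaries, with old 1 highest and old 3 lowest of the old ovaries. STAR is on that list too and led the sum, with 12233 of 12835.5 in old 2. On the same list RLN2, the hormone relaxin, was 14488 in old 1, 12.8 in old 2 and 4441 in old 3. In young ovaries RLN2 was 34.3, 9.40 and 13.4, so old 2, the ovary with the second-highest MRAP, lay within the young range.

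Endothelial genes (14 of 17 measured, 0 called, median 1.16) summed to 2549.9 to 3284 in young, 3264 to 6614 in middle-aged and 3083 to 13107 in old ovaries, and 9 of the 14 were highest in old 3. Macrophage genes (16 of 17 measured, 0 called, median 0.29) summed to 3014 to 4084 in young, 2571 to 5974 in middle-aged and 4960.4 to 5762 in old ovaries. Smooth muscle genes (8 of 12 measured, 0 called) had a median log2 difference of 0.77 between old and young but of -0.28 between old and middle-aged ovaries. Their sums were 4814 to 5631 in young, 7474 to 15089 in middle-aged and 4398 to 21243 in old ovaries. All 8 were highest in old 3. Without the share of all genes highest in old 3, such counts are descriptions. Genes of mesothelium and surface epithelium (11 of 12 measured, 0 called, median -0.67) summed to 6713 to 8709.9 in young, 3222 to 4568 in middle-aged and 2464 to 5419 in old ovaries. No array holds a value of 0, so absence of a marker cannot be read from these values.

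The measured genes nearest to MRAP on the chromosome did not share its pattern. Only protein-coding genes with a probe set of a single symbol were taken, by the RefSeq annotation of assembly T2T-MMU8v2.0. They were TCP10L and URB1 on one side, of which URB1 overlaps MRAP there, and MIS18A and SCAF4 on the other. TCP10L lay between 7.75 and 11.2 over all 9 ovaries, and the probe sets of URB1, a ribosome assembly factor, between 6.57 and 13.98. MIS18A, which prepares centromeres, was 122, 211 and 84.0 in old ovaries against 341, 368 and 225 in young ovaries on its brightest probe set, a log2 difference of -1.24 (SE 0.32, adjusted p = 0.171). SCAF4, a regulator of transcript ends, had a log2 difference of -0.27 on its brightest probe set (SE 0.15, adjusted p = 0.484). In no probe set of these 4 genes was every old ovary above the other 6, which only 2.45% of all probe sets showed.

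The genes whose log2 values over the 9 arrays were most like those of the brighter MRAP probe set were ATXN7 (r = 0.988), PLXND1 (0.987), ACADM (0.977), HFE (0.975), ACBD5 (0.972), IDI1 (0.970), DCLRE1C (0.970), APLNR (0.968), TRAPPC1 (0.966) and S100A14 (0.965). They were ranked by Pearson correlation among 14131 other genes, each by its closest probe set. In all 42 probe sets reached 0.95 while 25 reached -0.95. Choice by likeness favours genes that rise in old ovaries and share the order of MRAP, so what follows describes them without a test. ATXN7, a subunit of a chromatin-modifying complex, measured 518, 492 and 576 in young, 1080.3, 986 and 385 in middle-aged, and 11092, 4570.2 and 1278 in old ovaries. As for MRAP, old 1 was the highest and old 3 the lowest of the old ovaries, and middle-aged 3 was below all young ones. PLXND1, a semaphorin receptor, measured 526, 421 and 349 in young, 505, 654 and 412 in middle-aged, and 2547, 1315 and 813 in old ovaries.

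ACADM, an enzyme of fatty acid oxidation, was 1805, 1038 and 807 in old against 649, 557 and 545 in young ovaries. IDI1, an enzyme of isoprenoid and cholesterol synthesis, was 497, 431 and 91.2 in old against 54.2, 53.0 and 48.4 in young ovaries, and ACBD5, an acyl-CoA binding protein of peroxisomes, was 183, 139 and 91.7 against 67.4, 77.7 and 77.3. Old 1 was highest and old 3 lowest of the old ovaries in these genes, an order that their choice by likeness favours.

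DCLRE1C, a nuclease of DNA repair, was 2284, 1213 and 253 in old against 149, 65.8 and 102 in young ovaries. The other 4 had log2 differences between old and young ovaries of 0.76 for HFE, a regulator of iron uptake, 0.49 for APLNR, the apelin receptor, 0.61 for TRAPPC1, a vesicle tethering subunit, and 1.58 for S100A14, a calcium-binding protein. Likeness of a gene did not always hold for all its probe sets. For ATXN7 a second probe set had an r of 0.958 and the third of 0.296, for DCLRE1C a second had 0.968 and the third -0.230, and for S100A14 the other had 0.278. Both further probe sets of IDI1 stayed close, at 0.963 and 0.955.

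The least like were SP3 (r = -0.988), PPM1A (-0.974), GPANK1 (-0.973), ZNF644 (-0.971) and SNW1 (-0.968), and all 5 were lowest in old 1. PPM1A, a protein phosphatase, measured 891, 1235 and 1457 in old ovaries against 1746, 1821 and 2090.4 in young ovaries, so the old group lay wholly below. SNW1, a cofactor of splicing and transcription, measured 892, 1215 and 1303 in old ovaries against 1639.5, 1830.3 and 2088 in young ovaries. Their log2 differences between old and young ovaries were -0.68 (SE 0.18) and -0.72 (SE 0.19). All 5 genes were picked for running against MRAP, which was itself chosen for its rise in old ovaries. Low levels in old 1 and in the old group are favoured by that choice, so these values are descriptions without a test. The transcription factor SP3 had an r of -0.988 on 1 dim probe set and between -0.791 and 0.161 on its 4 others, and the further probe sets of PPM1A had r between -0.694 and 0.107.

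**Figure D5:**
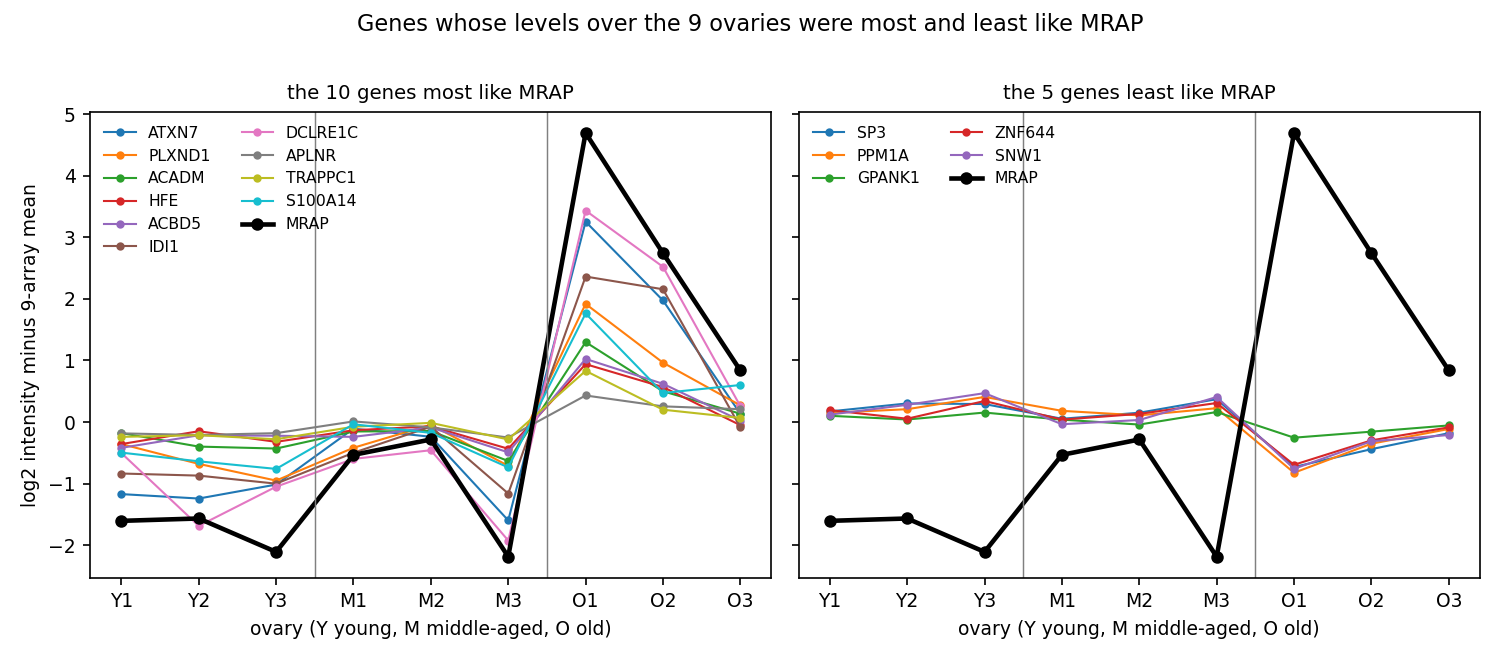
Log2 intensity minus the mean over the 9 arrays for MRAP (black) with the 10 genes most like it (left) and the 5 least like it (right), in which lines only join the points of a gene across ovaries. MRAP and its 10 nearest genes were highest in old 1. The 5 least like genes were lowest there and spanned a far narrower range than MRAP. Both sets were picked by their r with MRAP, which favours this pattern.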

How the data were processed

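RNA from 9 ovaries, 3 per age group, was biotin-labelled and hybridised to 1 Affymetrix rhesus array each. The deposited intensity values were made by the authors with RMA per the labels (background correction, quantile normalisation and a summary per probe set, version not given in the sources used here), while the methods of the study describe a LOWESS normalisation and a dye swap for another scanner; the values are linear, with array medians between 24.2 and 25.8. Of 52865 probe sets 99 controls were left out, and log2 intensity of the other 52766 was fitted without further normalisation in limma 3.58.1 (R 4.3.3) with 1 mean per age group over all 9 arrays, empirical Bayes variances and Benjamini-Hochberg adjustment over all probe sets. Every adjusted p is from this fit, and the number of arrays limits its precision. Single genes were also compared with an exact two-sided permutation test (scipy 1.17.1). The labels call the 3 arrays of a group biological replicates.

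Gene names came from the platform annotation, with 24956 probe sets of 1 symbol, 361 of several and 27449 of none, and neighbours from RefSeq. Where a gene had several probe sets, the brightest on average stood for it. Arrays correlated at 0.947 to 0.989 over all probe sets. The genes named were MRAP, STAR, FABP4, the melanocortin list, the 10 most and 5 least like MRAP, the neighbours, and of each other list those called and up to 4 with the smallest p, beside those said to be named after their values were seen. Members and lists were chosen with earlier results of these data known. Alternatives were other scalings, a filter on dim probe sets, other priors and weights, each comparison alone, averaged probe sets, the replicate number as a block, and arrays left out.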

Additional observations from a re-analysis of the deposited data

How the results depend on the processing

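MRAP on the brighter probe set stayed higher in old ovaries under every alternative run. With its probe sets averaged the log2 difference was 2.49 between old and young and 2.14 between old and middle-aged ovaries, and leaving out 1 array gave 3.55 to 5.47 and 2.79 to 4.72. STAR kept its direction, with 2.57 to 3.89 (limma adjusted p 0.112 to 0.432) and 1.77 to 3.22 (0.248 to 0.824) in the same 2 comparisons. FABP4 spanned 1.51 to 4.54 and -0.10 to 2.94, both lowest without old 3. MRAP between middle-aged and young ovaries spanned 0.40 to 1.35. With the replicate block, STAR between old and young ovaries was called (3.15, adjusted p = 0.0261), so that 2 steroid-making genes (STAR and MGARP) and 1 fat cell gene (ACSL1) had a call. The labels do not say that equal numbers pair the samples. Same-numbered arrays correlated in their deviations at 0.252 to 0.410 for number 3, 0.0953 to 0.267 for number 1 and -0.0247 to 0.0556 for number 2. Arrays numbered 3 correlated at -0.416 to -0.0335 with those numbered 1 or 2 in other groups. Whether arrays of the same number share a cause was not tested.

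Counts of calls moved most. Between old and young ovaries, 82 probe sets became 27 with the groups compared alone, 54 with probe sets averaged, 229 with the block and 2 without the 3 arrays numbered 3, and it ran from 4 (without young 2) to 198 (without old 2) with 1 array left out. The alternative without the arrays numbered 3 was added once the data had been seen. Between old and middle-aged ovaries, 18 became 9 with arrays centred, 5 with the groups alone, 28 with the block, 2 without the arrays numbered 3, and 1 (without middle-aged 3) to 42 (without old 3). Between middle-aged and young ovaries the count was 0 to 1, and 0 without the arrays numbered 3. The cause of these moves was not tested. With 1 array left out 0 to 1 genes were called in the cyclic AMP list (ADCY4 without old 2) and in the steroid-making list (HSD17B7 without old 3). Of the 10 genes most like MRAP, 3 stayed by Spearman correlation, 0 with the dimmer MRAP probe set and 0 with age group means subtracted.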
